A study of Mus musculus with 13 samples.

Results

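The aryl hydrocarbon receptor, its partners and a group of cytochrome P450 genes were followed in the olfactory bulb of mice exposed to PM2.5, the fine fraction of airborne particles. The 10 genes were picked by name from the 34745 genes of the table: the receptor Ahr, its partner Arnt, the feedback repressors Ahrr and Tiparp, and the P450 genes Cyp1a1, Cyp1b1, Cyp1a2, Cyp2e1, Cyp2a5 and Cyp2g1. When they were picked it was already known that Cyp2e1 was lower in the high-dose libraries and that Cyp2a5 stood high in 1 control library, so those values, and any call or flag that rests on them, are a description and support nothing, and no p-value is given for them. All 10 symbols were found, each in 1 row, and 9 of the 10 had enough counts to be tested. Cyp1a1 did not.

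RNA of the olfactory bulb was sequenced in 13 libraries from wild type C57BL/6 mice, which the series describes as male and 8 weeks old and the sample labels as 7 to 8 weeks old. The labels divide them into a 1st set, with 4 control libraries (13 to 14.1 M counts) and 3 libraries at the low dose of 3 mg/kg (14.3 to 14.7 M), and a 2nd set, with 3 control libraries (15.4 to 27 M) and 3 libraries at the high dose of 10 mg/kg (20.2 to 25.5 M). Both doses carry the label "/3 day", and neither the route of exposure nor the meaning of 1st and 2nd is given in the sources used here. Because each dose was given in 1 set only, exposed libraries were set against same-set controls, and dose and set cannot be told apart.

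The sets differed in more than the dose. Xist, the RNA that coats the inactive X chromosome, ran from 2250 to 2710 CPM (counts-per-million, scaled to library depth) in the 1st set (7 libraries) and from 0.0992 to 0.555 CPM in the 2nd (6 libraries), while 4 Y-linked genes summed to 0 to 0.21 CPM and to 177 to 230 CPM. The series text describes all mice as male, which the 1st set goes against. Summed markers of olfactory bulb neurons were 3800 to 4150 CPM in the controls of the 1st set, 4190 to 4320 CPM at the low dose, 4250 to 5050 CPM in 2nd-set controls and 3850 to 4200 CPM at the high dose, so the tissue carried the markers of its label. In bulk tissue, fewer cells of a type and less RNA per cell cannot be told apart. The labels do not say that replicates are separate animals, and the p-values speak only of the spread among these samples.

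The aryl hydrocarbon receptor is a transcription factor that waits in the cytosol with heat shock protein chaperones until it binds a ligand, among them the polycyclic aromatic hydrocarbons that combustion particles can carry. It then enters the nucleus, pairs with ARNT and binds DNA at response elements with the core GCGTG, and the P450 genes Cyp1a1, Cyp1b1 and Cyp1a2 are its textbook targets. Ahrr and Tiparp are targets too, and their products in turn hold the receptor back. P450 enzymes are heme proteins that oxidize small molecules, both foreign compounds and the body's own lipids and steroids, and the nasal lining next to the bulb is known for a rich set of them.

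The promoters are shown to place the response element core in the members, among them the known targets named above. Cyp2e1 is not one of those targets. RefSeq windows (GRCm38.p6) were found for 8 of the 10 genes, Ahr and Cyp2g1 being the others. In the 250 bases before the start, GCGTG was sought on both strands, as GCGTG or CACGC, and every match is in capitals in these sequences, which run 5′ to 3′ on the strand of the gene. Cyp1a1 (chr9:57697363-57697612, plus strand) is the classical target, Cyp1b1 (chr17:79715062-79715311, minus strand) the most highly expressed target P450 here, Ahrr (chr13:74292332-74292581, minus strand) and Tiparp (chr3:65528197-65528446, plus strand) the repressors, and Cyp2e1 (chr7:140763569-140763818, plus strand) the P450 whose level differed at the high dose.
Cyp1a1: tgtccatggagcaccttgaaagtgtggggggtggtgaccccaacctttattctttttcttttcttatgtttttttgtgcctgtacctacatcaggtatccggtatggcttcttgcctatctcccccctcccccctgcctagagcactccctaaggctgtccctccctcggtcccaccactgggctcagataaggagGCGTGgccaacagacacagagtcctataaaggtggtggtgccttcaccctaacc
Cyp1b1: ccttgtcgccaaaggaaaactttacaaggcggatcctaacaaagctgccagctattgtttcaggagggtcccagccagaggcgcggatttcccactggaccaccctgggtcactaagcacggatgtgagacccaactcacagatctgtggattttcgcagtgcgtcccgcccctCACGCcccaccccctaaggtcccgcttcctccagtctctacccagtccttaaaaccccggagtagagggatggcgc
Ahrr: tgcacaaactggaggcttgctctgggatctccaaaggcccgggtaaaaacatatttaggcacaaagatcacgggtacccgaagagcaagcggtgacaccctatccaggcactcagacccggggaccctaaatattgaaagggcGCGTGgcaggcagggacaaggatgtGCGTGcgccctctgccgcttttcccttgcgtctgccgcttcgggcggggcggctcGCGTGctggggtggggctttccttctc
Tiparp: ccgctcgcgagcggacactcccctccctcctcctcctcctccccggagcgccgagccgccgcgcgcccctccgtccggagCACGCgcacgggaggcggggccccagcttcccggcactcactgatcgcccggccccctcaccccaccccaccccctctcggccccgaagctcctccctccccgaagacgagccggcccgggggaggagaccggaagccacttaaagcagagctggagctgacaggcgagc
Cyp2e1: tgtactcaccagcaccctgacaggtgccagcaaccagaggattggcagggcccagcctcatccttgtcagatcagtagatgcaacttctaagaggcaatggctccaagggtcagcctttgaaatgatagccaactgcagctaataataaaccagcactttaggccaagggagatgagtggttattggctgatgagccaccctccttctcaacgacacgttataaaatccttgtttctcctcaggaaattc
The Ahrr window held 3 matches, at 107, 82 and 27 bases before the start, the last of them also matching the longer form TNGCGTG. Cyp1a1 held 1 match at 54 bases, and Arnt 1 at 29 bases. Cyp1b1 held 1 match at 76 bases and Tiparp 1 at 170 bases, both on the opposite strand. The windows of Cyp1a2, Cyp2e1 and Cyp2a5 held none, so 5 of the 8 windows carried the core. Among all 32851 promoter windows of this length, 28.2% held the core and 4.1% the longer form. A match is a run of letters and not a measured binding site, and the best known response elements of Cyp1a1 lie further upstream than this window.

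Across the 13 libraries the members spanned a wide range of levels per transcript length. By median FPKM (counts scaled by gene length and library depth), Tiparp was highest at 10.6 (8.07 to 15.5 over libraries), followed by Cyp1b1 at 4.71 (1.63 to 5.46), Arnt at 4.34 (2.6 to 4.94) and Ahr at 1.47 (0.935 to 2.03). The ranges of Cyp1b1 and Arnt overlap, so these neighbours in the order do not differ beyond their spread, whereas Tiparp lay above Cyp1b1 and Arnt above Ahr in all libraries. The length behind the FPKM was 13171 bases for Arnt, against 8007 of exon in the GENCODE M21 annotation. For Cyp1b1 it was 5128 against 5840, so the order of close levels depends on the lengths used. Below Ahr came Cyp2e1 at 0.798 FPKM, Cyp2a5 at 0.261, Cyp2g1 at 0.145, Ahrr at 0.0492, Cyp1a2 at 0.0376 and Cyp1a1 at 0.0299, with ranges that overlap from each gene to the next. P450 genes were taken as the symbols made of Cyp, digits, letters and digits, which leaves out Cyp51. Of the 94 rows found by this rule, 32 had no count in any library. Cyp46a1, the cholesterol 24-hydroxylase of neurons, led them at a median of 53.6 FPKM. Cyp1b1 ranked 8th of the 94, Cyp2e1 19th, Cyp2a5 24th, Cyp2g1 28th, Cyp1a2 33rd and Cyp1a1 35th.

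**Figure D1:**
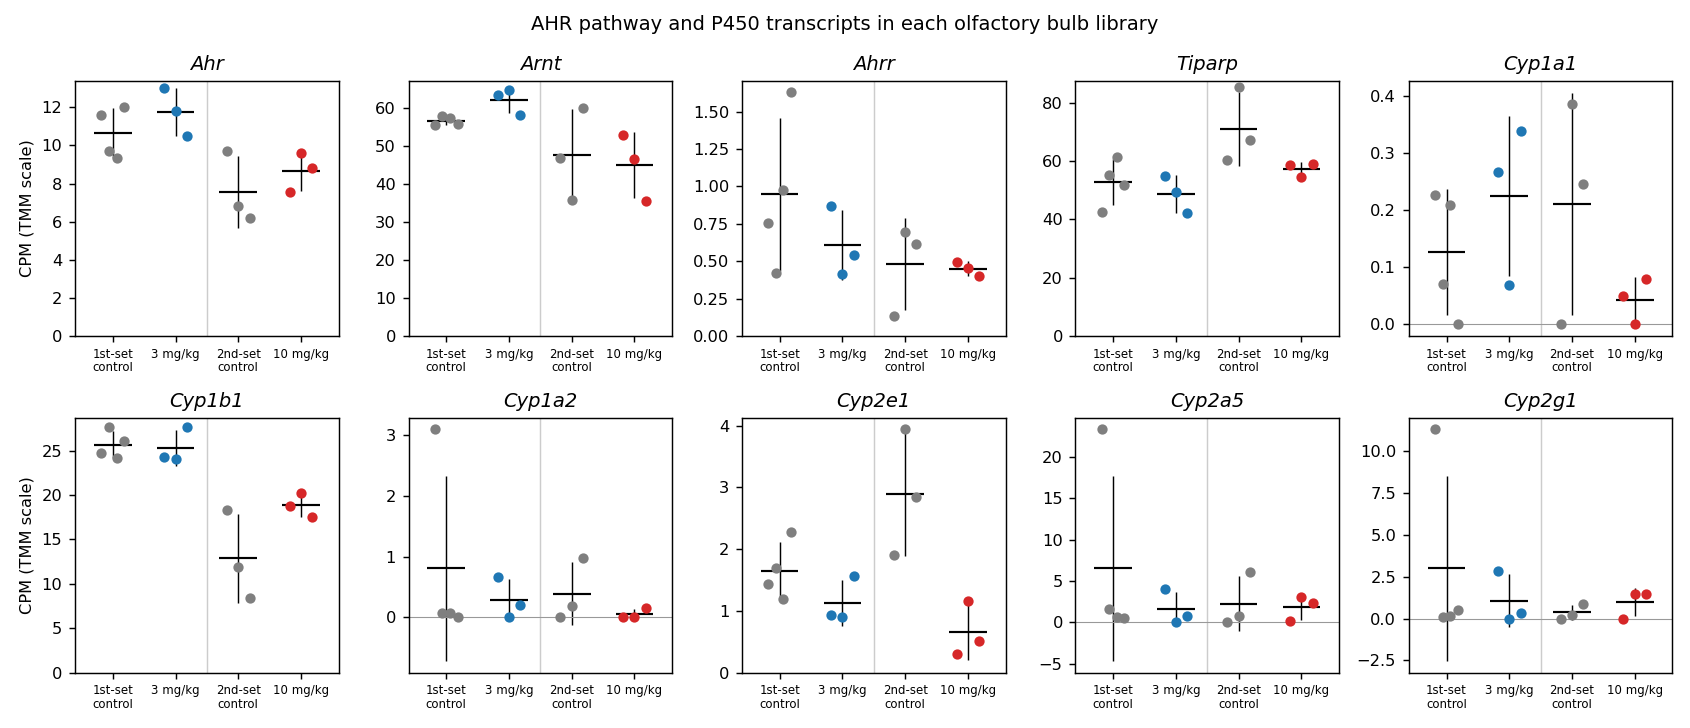
Level of each gene in every library, in CPM, by group, with 1 point per library, a horizontal bar at the group mean and a vertical bar of ± 1 SD. Cyp2e1 in the 3 high-dose libraries (0.298 to 1.16 CPM) lies below the 3 controls of its set (1.91 to 3.94 CPM), while Cyp2a5, Cyp2g1 and Cyp1a2 each have 1 control library of the 1st set far above the rest.

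At the low dose no member was called. At the high dose 1 of the 9 tested members was called, Cyp2e1, which was lower. The called share of all 17467 genes tested was 0.0% at the low dose, against 0.641% for the high dose, and nothing is read from the count of 1, since the fall of Cyp2e1 was known when the genes were picked. Calls are at an adjusted p of 0.05 in the edgeR quasi-likelihood test with Benjamini-Hochberg adjustment over all genes tested, which also gives every adjusted p below. At an unadjusted p of 0.05, 1.31% of genes were higher and 1.15% lower at the low dose, and none of the 9 members was among them. None of the 9 was called for the difference between the responses (0.00573% of all genes called) or for their mean (0.492%). For Cyp2e1 and Cyp2a5 these contrasts hold the values already known and are a description.

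The receptor itself did not pass the test at either dose. Ahr (ENSMUSG00000019256, chromosome 12, 35497974 to 35535038, minus strand) read 11.6, 9.71, 9.36 and 12 CPM in the controls of the 1st set and 13, 11.8 and 10.5 CPM at the low dose. In the 2nd set it read 9.73, 6.8 and 6.17 CPM in controls and 7.54, 9.61 and 8.82 CPM at the high dose. Exposed and control libraries overlapped in both sets. The log2 fold change was 0.14 (SE 0.17, adjusted p = 1.0) at the low dose and 0.20 (SE 0.18, adjusted p = 0.836) at the high dose. Exons of Ahr share 127 bases with Gm48236 on the opposite strand, and whether the counting used strand is not given in the sources used here.

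Arnt (ENSMUSG00000015522, chromosome 3, 95434388 to 95497240, plus strand), whose protein pairs with the activated receptor and also with hypoxia-inducible factors, read 55.5 to 57.9 CPM in the 4 controls of the 1st set and 63.3, 64.7 and 58.1 CPM at the low dose. All 3 low-dose libraries thus lay above all 4 controls, the nearest being 58.1 and 57.9 CPM, and the log2 fold change was 0.13 (SE 0.15, adjusted p = 1.0). Groups that do not overlap, in either direction, were found for 6.62% of all genes at the low dose, and Arnt was the only one of the 9 tested members. In the 2nd set Arnt read 46.8, 35.7 and 59.9 CPM in controls and 52.8, 46.6 and 35.5 CPM at the high dose, with overlap (log2 fold change -0.08, SE 0.16, adjusted p = 0.955). The sign of the high-dose value turned without the 3rd control of the 2nd set (0.13). Arnt2, the relative of Arnt that is abundant in neurons, stood at a median of 25.9 FPKM over libraries against 4.34 for Arnt. The size of this gap depends on the length used for each gene.

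The repressors followed. Ahrr (ENSMUSG00000021575, chromosome 13, 74211118 to 74292331, minus strand) competes with the receptor for ARNT, and it was close to the limit of detection. Its counts were 10, 6, 14 and 23 in the controls of the 1st set and 13, 6 and 8 at the low dose. They were 2, 18 and 10 in 2nd-set controls and 10, 9 and 10 at the high dose. Exposed and control libraries overlapped at both doses, with log2 fold changes of -0.63 (SE 0.51, adjusted p = 1.0) and -0.17 (SE 0.55, adjusted p = 0.975). Neither passed.

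Tiparp (ENSMUSG00000034640, chromosome 3, 65528410 to 65555518, plus strand) encodes a member of the poly-ADP-ribose polymerase family that dampens receptor signalling. It read 42.7, 55.3, 61.5 and 51.7 CPM in the controls of the 1st set and 55.1, 49.3 and 42.1 CPM at the low dose. The log2 fold change there was -0.11 (SE 0.14, adjusted p = 1.0). In the 2nd set it read 60.6, 85.4 and 67.3 CPM in controls and 58.6, 54.5 and 59.0 CPM at the high dose. All 3 high-dose libraries lay below all 3 controls, the closest pair being 59.0 and 60.6 CPM. The log2 fold change was -0.31 (SE 0.14, unadjusted p = 0.0476, adjusted p = 0.508 in the edgeR test), which did not pass. At the high dose 10.4% of all genes did not overlap, in either direction. Of the 9 tested members only Tiparp and Cyp2e1 did not. Cyp2e1 was picked with its fall known, so nothing is read from their number. Exons of Tiparp share 223 bases with 4931440P22Rik on the opposite strand.

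Of the 3 textbook target P450 genes, Cyp1b1 was well measured, and Cyp1a1 and Cyp1a2 were at the edge of detection. Cyp1a1 (ENSMUSG00000032315, chromosome 9, 57697613 to 57703822, plus strand), which oxidizes polycyclic hydrocarbons and is the usual readout of receptor activation, had counts of 3, 1, 3 and 0 in the controls of the 1st set and 4, 1 and 5 at the low dose. In the 2nd set the counts were 0, 10 and 4 in controls and 1, 0 and 2 at the high dose. No library held more than 10 counts, and where a library held 0, a level of up to 0.218 CPM (4th control of the 1st set), 0.195 CPM (1st control of the 2nd set) or 0.148 CPM (2nd high-dose library) was allowed by 3 counts of its total. Summed over libraries, there were 7 counts in 54.9 M for controls and 10 in 43.6 M at the low dose, a ratio of 1.8 with an exact 95% counting interval of 0.619 to 5.58. In the 2nd set there were 14 counts in 58.7 M for controls and 3 in 66.3 M at the high dose, a ratio of 0.19 (0.035 to 0.68), and 10 of the 14 came from the 2nd control library alone. These intervals cover counting error only and not the spread between libraries, and control and exposed libraries overlapped in both sets.

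Cyp1b1 (ENSMUSG00000024087, chromosome 17, 79706953 to 79715041, minus strand), a P450 of vessel walls and connective tissue that oxidizes estrogens and hydrocarbons, read 24.7, 27.7, 24.2 and 26.1 CPM in the controls of the 1st set and 24.3, 24.0 and 27.6 CPM at the low dose. Group means were 25.7 ± 1.56 CPM (SD, n = 4) and 25.3 ± 1.99 CPM (SD, n = 3). The log2 fold change was -0.02 (SE 0.18, adjusted p = 1.0), and its sign turned when any 1 of 3 libraries was left out. In the 2nd set Cyp1b1 read 18.3, 11.9 and 8.45 CPM in controls and 18.8, 20.2 and 17.5 CPM at the high dose. The 1st control lay among the high-dose libraries and the other controls below all of them. The log2 fold change was 0.55 (SE 0.19, unadjusted p = 0.0129, adjusted p = 0.316 in the edgeR test), which did not pass. Without the 1st control of the 2nd set it was 0.90 (adjusted p = 0.0162 in the edgeR test) and without the 3rd 0.33 (adjusted p = 0.627), and over all alternatives the adjusted p ran from 0.0162 to 0.938. The test of the difference between the responses to the doses did not pass (0.57, SE 0.26, adjusted p = 0.83).

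Cyp1b1 was 1 of 2 tested members whose level was called between the controls of the sets, where 19.3% of all genes were called. It stood at 12.9 ± 4.99 CPM (SD, n = 3) in the controls of the 2nd set, a log2 difference of -1.0 (SE 0.19, adjusted p = 0.00377) from those of the 1st, and the groups did not overlap. It was the only one of the 9 tested members without overlap there, against 30.4% of all genes. The other member called was Tiparp, higher in the 2nd set by 0.43 (SE 0.13, adjusted p = 0.0379), with overlap between the controls, a call that 5 of 18 alternatives lost. Markers of the cells in which Cyp1b1 is known to be made differed the same way: 5 of 7 markers of meningeal and perivascular fibroblasts (Aldh1a2, Col1a1, Col1a2, Lum, Slc6a13), 6 of 8 of pericytes and smooth muscle (Abcc9, Acta2, Myh11, Pdgfrb, Tagln, Vtn) and 3 of 8 of endothelium (Cdh5, Flt1, Slco1a4) were called lower in 2nd-set controls, and none was called higher. The summed fibroblast markers were 188 to 354 CPM in the controls of the 1st set and 69.7 to 107 CPM in those of the 2nd, and the summed pericyte and smooth muscle markers 279 to 327 CPM and 181 to 260 CPM. At the high dose these sums were 87.7 to 152 CPM and 204 to 238 CPM, and Aldh1a2 was called higher (log2 fold change 1.12, SE 0.21, adjusted p = 0.0278). The part of these cells in the Cyp1b1 values was not tested.

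Cyp1a2 (ENSMUSG00000032310, chromosome 9, 57676937 to 57683655, minus strand), the liver's caffeine-oxidizing P450, lies 13957 bases from Cyp1a1 on the opposite strand. Its counts were 41, 1, 1 and 0 in the controls of the 1st set, 10, 0 and 3 at the low dose, 0, 5 and 16 in 2nd-set controls, and 0, 0 and 4 at the high dose. A single control library thus held 41 of the 43 control counts of the 1st set. The log2 fold changes were -1.41 (SE 1.55, adjusted p = 1.0) and -2.51 (SE 2.10, adjusted p = 0.814). Neither passed, and the libraries of each comparison overlapped.

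Cyp2a5 and Cyp2g1, P450 genes known for the olfactory mucosa, where their enzymes oxidize odorants and inhaled compounds, lie 14099 bases apart on the plus strand of chromosome 7. Cyp2a5 (ENSMUSG00000005547, 26835305 to 26843548) had 308, 23, 10 and 7 counts in the controls of the 1st set, 60, 1 and 12 at the low dose, 0, 20 and 98 in 2nd-set controls, and 3, 62 and 59 at the high dose. Cyp2g1 (ENSMUSG00000049685, 26808892 to 26821205) had 150, 1, 2 and 7 counts, then 43, 0 and 5, then 0, 6 and 14, and then 0, 29 and 37. Within the controls of the 1st set alone, counts of Cyp2a5 thus ran from 7 to 308. Exposed and control libraries overlapped for both genes at both doses. For Cyp2a5 the log2 fold changes were -1.98 (SE 1.69) at the low dose, where the known high control enters, and -0.24 (SE 1.74, adjusted p = 0.993) at the high dose. For Cyp2g1 they were -1.46 (SE 1.66, adjusted p = 1.0) and 1.46 (SE 2.04, adjusted p = 0.915). Without the 1st control of the 1st set, the low-dose values turned to 0.80 for Cyp2a5 and 2.16 for Cyp2g1. Cyp2a4, a near copy of Cyp2a5 with which reads could be split, had 2 counts in that library and 0 in the other 12.

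Markers of olfactory mucosa support and gland cells, the cells known for these P450 genes, varied between libraries as well. The sum over 12 markers was 34.0, 6.82, 8.1 and 4.54 CPM in the controls of the 1st set and 19.0, 3.26 and 5.83 CPM at the low dose. It was 2.63, 1.93 and 8.64 CPM in 2nd-set controls and 1.59, 6.99 and 30.6 CPM at the high dose. The library with the highest sum, the 1st control of the 1st set, was also the highest for Cyp2a5, Cyp2g1 and Cyp1a2. Of the 6 libraries with the highest sums, 5 were among the 6 highest for Cyp2a5, 5 for Cyp2g1, 4 for Cyp1a2, 4 for Cyp1a1, 4 for Ahrr, 3 for Cyp1b1 and 1 for Cyp2e1, values that share their libraries and depth. Cyp1a2 thus shared no more of them than Cyp1a1 or Ahrr did. In the 3rd high-dose library the sum was led by Bpifa1, a secreted airway protein, at 18.4 CPM. Ugt2a1, an odorant-conjugating enzyme of support cells, was found in every library (0.0496 to 11.9 CPM), while Ugt2a2 was at 0 in 12 of 13 and Obp1a at 0 in 11 of 13. The part of mucosal RNA in the levels of Cyp2a5, Cyp2g1 and Cyp1a2 was not tested.

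**Figure D2:**
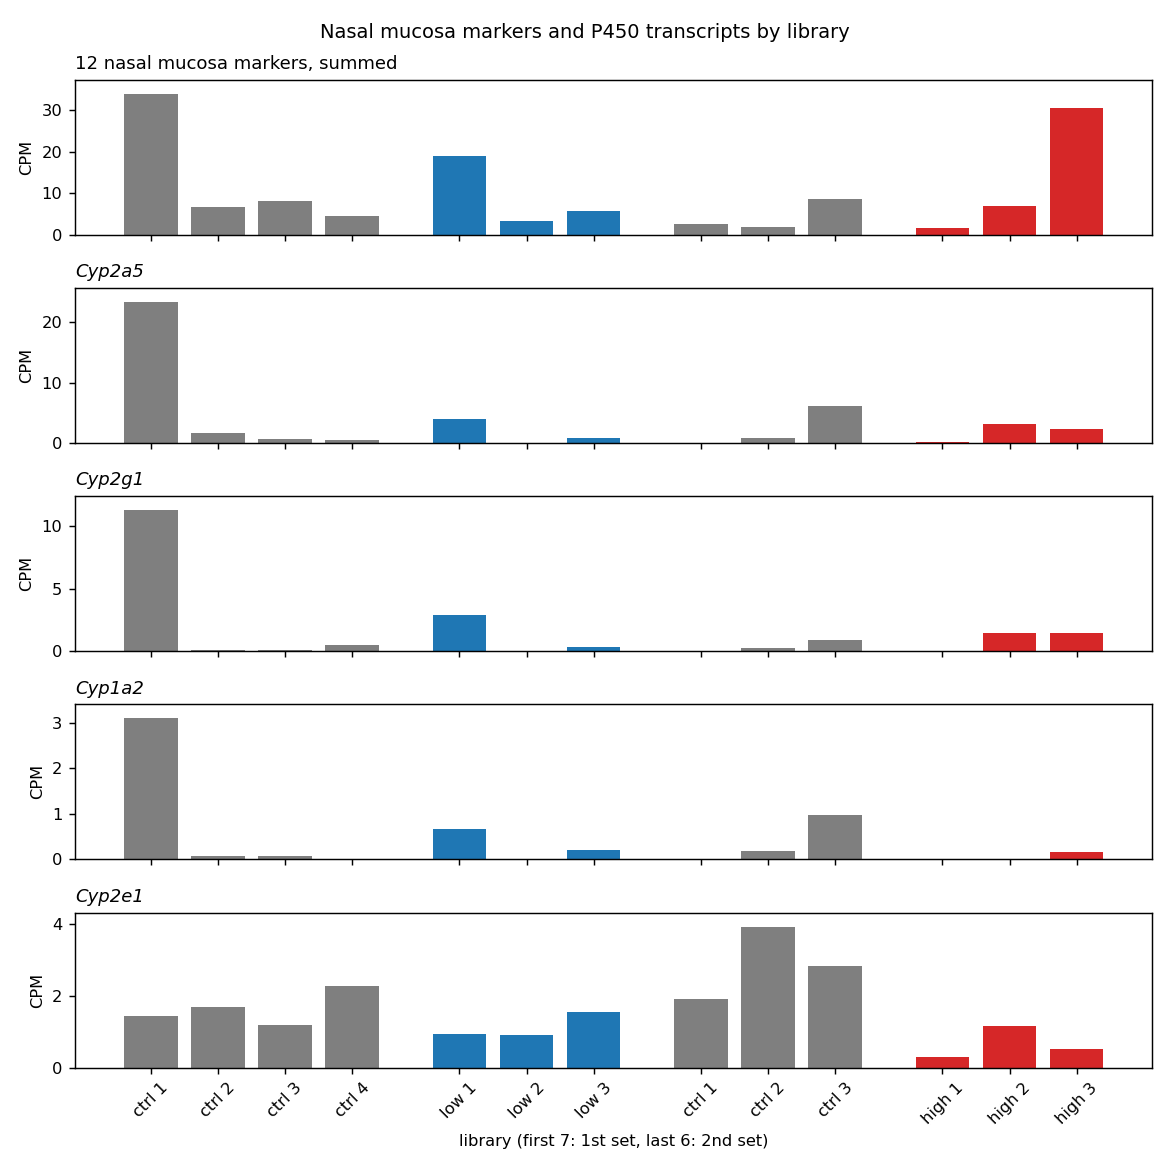
Levels of Cyp2a5, Cyp2g1, Cyp1a2 and Cyp2e1 and the summed olfactory mucosa markers in each of the 13 libraries as bars in CPM from 0, with controls in grey, the low dose in blue and the high dose in red. The 1st control of the 1st set is highest in Cyp2a5 (23.3 CPM), Cyp2g1 (11.3 CPM), Cyp1a2 (3.1 CPM) and the marker sum (34.0 CPM), but not in Cyp2e1 (1.44 CPM).

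Cyp2e1 (ENSMUSG00000025479, chromosome 7, 140763739 to 140774975, plus strand), the ethanol-oxidizing P450 of liver that is also found in brain, was the member called at the high dose. It read 1.91, 3.94 and 2.84 CPM in 2nd-set controls, from 29, 102 and 46 counts, and 0.298, 1.16 and 0.519 CPM at the high dose, from 6, 23 and 13 counts. Every high-dose library lay below every control, the closest pair being 1.16 and 1.91 CPM. The means were 2.9 ± 1.02 CPM (SD, n = 3) and 0.658 ± 0.446 CPM (SD, n = 3). The fitted log2 fold change was -2.16 (SE 0.43), which puts controls at 4.46 times the exposed level. In the 1st set it read 1.44, 1.69, 1.19 and 2.27 CPM in controls and 0.935, 0.902 and 1.56 CPM at the low dose. There the ranges overlapped, since 1 low-dose library lay among the controls, and the log2 fold change was -0.54 (SE 0.42, adjusted p = 1.0). The difference between the responses was -1.62 (SE 0.60). It is built from the high-dose values already known and is a description. The difference between the controls of the sets (0.83, SE 0.37, adjusted p = 0.128 in the edgeR test) did not pass.

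The log2 fold change of Cyp2e1 at the high dose ran from -2.80 to -1.82 over the 19 alternatives that gave a value. Since its groups do not overlap, leaving out a library could not turn the sign, and this range is a description. Fits without a library of the 1st set took none out of this comparison. The call was lost in 9 of the 19, among these 6 of the 13 fits that left out 1 library. Those 6 left out the 1st and 2nd controls of the 1st set, the 2nd and 3rd controls of the 2nd set, and the 1st and 3rd high-dose libraries. None of the 9 astrocyte, 8 endothelial or 8 tested mucosa markers was called at the high dose. Summed astrocyte markers were 2980 to 3860 CPM in 2nd-set controls and 3840 to 4130 CPM at the high dose. The mucosa sum was 1.93 to 8.64 CPM in these controls and 1.59 to 30.6 CPM at the high dose. The summed markers of olfactory bulb neurons lay lower in every high-dose library (3850 to 4200 CPM) than in every control (4250 to 5050 CPM), with 7 of 8 fold changes below 0 and none called. Other sums lay higher at the high dose: microglia at 289 to 346 CPM against 232 to 276 CPM, with C1qa called (log2 fold change 0.84, SE 0.17, adjusted p = 0.036), and red blood cells at 114 to 302 CPM against 97.2 to 119 CPM. Their part in the Cyp2e1 value was not tested.

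**Figure D3:**
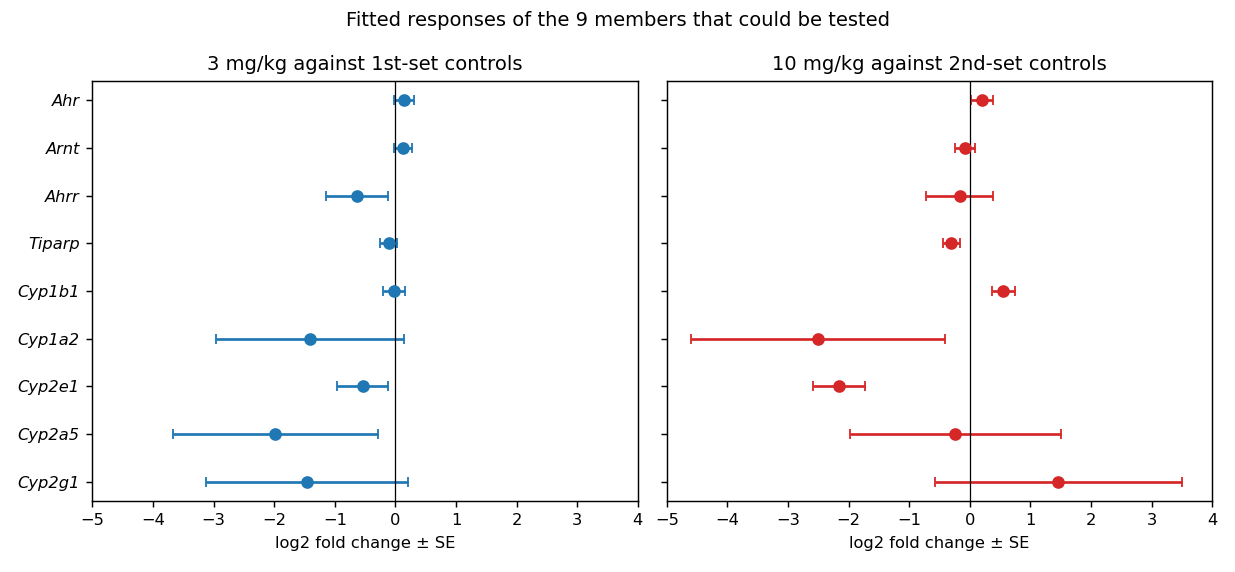
Log2 fold changes of the 9 tested members for each dose against same-set controls, with bars of ± 1 SE. Cyp2e1 at the high dose stands at -2.16 (SE 0.43), while the bars of Cyp1a2, Cyp2a5 and Cyp2g1 span 1.55 to 2.10 to either side.

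The wider pathway was read from lists of related genes. None of the 5 genes of the receptor's cytosolic complex was called at either dose, with median log2 fold changes of -0.04 and 0.02 beside 0.0 and -0.01 over all genes. Hsp90ab1, a chaperone that holds the receptor ready for ligand, stood at 0.15 on the log2 scale (SE 0.13, adjusted p = 0.812) at the high dose. Of 14 other known receptor targets, 7 had enough counts, and none was called (medians 0.02 and 0.10). The value farthest from 0 among those named was that of Xdh, xanthine dehydrogenase, which stood at 8.46 ± 1.94 CPM (SD, n = 4) in controls and 17.9 ± 9.17 CPM (SD, n = 3) at the low dose (log2 fold change 1.08, SE 0.27, adjusted p = 0.874). Slc7a5, the amino acid transporter through which the receptor ligand kynurenine enters cells, stood at 0.21 (SE 0.08, adjusted p = 0.36) and Nfe2l2, the regulator of antioxidant genes, at 0.40 (SE 0.16, adjusted p = 0.376) at the high dose.

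Among 13 other genes of the bHLH-PAS family, to which Ahr and Arnt belong, 10 were tested. At the high dose 2 were called, where 0.641% of all genes were. Both results were known when the list was drawn up. Nothing is read from this count, and no p-value is given for these 2 values, which are a description. Npas4, an activity-dependent factor of neurons, fell by 1.85 on the log2 scale (SE 0.21). Hif3a, a hypoxia-inducible factor that pairs with ARNT, rose by 2.24 (SE 0.27). Its level was 1.85 ± 0.547 CPM (SD) in 2nd-set controls, 8.57 ± 3.0 CPM at the high dose and 7.59 ± 1.03 CPM in 1st-set controls. Between the controls of the sets Hif3a was called lower in the 2nd (log2 difference -2.06, SE 0.26, adjusted p = 0.000525 in the edgeR test). At the low dose Npas4 stood at -1.43 (SE 0.20, adjusted p = 0.0737) and Hif3a at 0.94 (SE 0.22, adjusted p = 0.5), neither of which passed. Hif3a overlaps an annotated gene on the opposite strand.

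Of 10 electron donors and heme enzymes, which feed all P450 enzymes, none was called (medians 0.02 and -0.01). Alas1, which starts heme synthesis, stood at 0.10 (SE 0.09, adjusted p = 1.0) at the low dose, and Cyb5b, a cytochrome b5, at -0.13 (SE 0.07, adjusted p = 0.627) at the high dose. Of 88 other P450 genes found by the rule on symbols, 24 were tested and none was called (medians -0.03 and 0.03). The smallest p-values were those of Cyp26b1, which degrades retinoic acid, at the low dose (log2 fold change 0.68, SE 0.32, adjusted p = 1.0) and of Cyp4x1, a brain P450, at the high dose (-0.30, SE 0.11, adjusted p = 0.331).

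**Figure D4:**
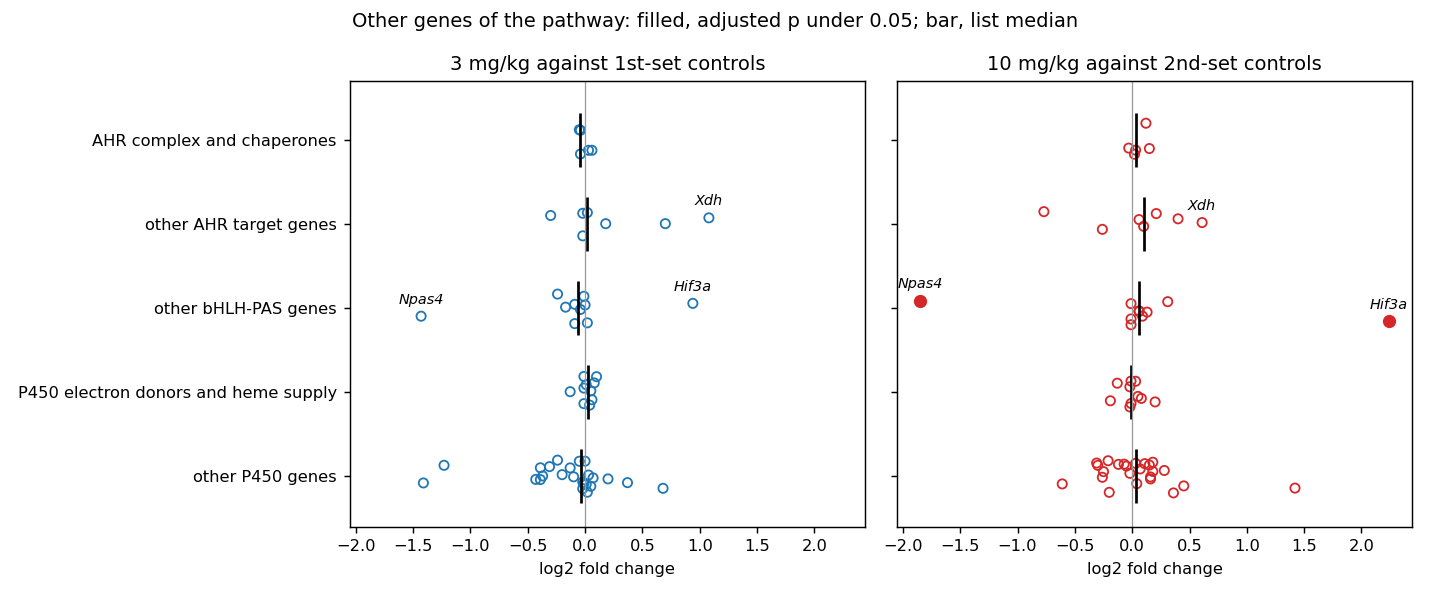
Log2 fold changes at each dose for the tested genes of 5 lists of related genes, with 1 point per gene, filled where called, and a bar at the list's median. The medians lie between -0.06 and 0.10, and the 2 filled points are Npas4 (-1.85) and Hif3a (2.24) at the high dose.

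The genes whose pattern over the 13 libraries was most like that of a member were found by the root mean square difference in log2 CPM, each gene centred on the controls of its set, among 16048 genes. For Cyp2e1 they included Nr4a1, an immediate early nuclear receptor (0.63), and Gm38391 (0.67), against a median of 1.14 over all genes. Nr4a1 had log2 fold changes of -0.55 (low dose) and -1.67 (high dose). For Cyp1b1 they were Cbl, a ubiquitin ligase, Robo4, a receptor of endothelium, and Slc7a11, the cystine transporter, each at 0.13 against a median of 0.43. For Ahr they were Bmp5 (0.10), Edil3 (0.11) and Lims1 (0.11), against 0.30. For Tiparp they were Tob1 (0.09), Anapc15 (0.10) and the cell cycle inhibitor Cdkn1a (0.11), against 0.29. These are descriptions over libraries that the genes share.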

How the data were processed

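The authors deposited raw counts and FPKM for 34745 genes in 13 libraries. Per the submitters' processing notes, HISAT2 and mm10 were used. Per the labels' protocols, RNA came from an RNeasy kit and libraries from a TruSeq Stranded Total RNA kit. For the counting program, annotation and strand setting, nothing is given in the sources used here. The deposited FPKM equals the count divided by library total and by a fixed length per gene (largest relative deviation 6.36e-07 over 2894 genes), and was used only for levels between genes. Coordinates were compared with GENCODE M21 (GRCm38): of 34267 identifiers matched, 27686 had the same coordinates. Counts of the 17467 genes that filterByExpr kept were normalized by TMM and tested by the robust quasi-likelihood F test of edgeR 4.0.16 (R 4.3.3). All 4 groups entered a single fit, which left 9 residual degrees of freedom. CPM are counts scaled by TMM-adjusted totals, and SE, which is approximate, is the log2 fold change over the root of F. Replicates were not duplicates (chi-square per gene at least 6.09). Between replicates of a group this value was 6.09 to 10.1 in the 1st set and 13.7 to 46.5 in the 2nd. Libraries of the 2nd set were deeper. Its 1st and 3rd controls, at 15.4 M and 16.3 M counts, gave 18.5. The part of depth in these values was not tested. The single fit gave all 4 groups a shared estimate of spread for each gene. The test was tried on simulated counts for 17467 genes and recovered 66% of changes of 1 and 88% of changes of 2 (log2) at the high dose. It made 10 false calls there. The changed genes were drawn at random from all those tested, with the same spread in every group. These shares therefore do not describe members with few counts or a larger spread in the 2nd set. Members and lists were chosen with earlier results of these data known. Named are all members, and of each list the genes called and the 2 with the smallest p at each dose, of which a part is printed; for likeness, the 3 nearest genes with a mean of at least 1 CPM (pseudocount 0.1), of which 1 is not reported here. Alternatives were DESeq2 1.42.0, other filters, a separate fit per set, a replicate block and leaving out libraries.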

Additional observations from a re-analysis of the deposited data

Results flagged for a closer look

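In the 4 controls of the 1st set, 5 values of the 1st control library lay far above those of the other 3 libraries. These were Cyp1a2 at 3.1 CPM, Cyp2a5 at 23.3 CPM, Cyp2g1 at 11.3 CPM, the summed markers of olfactory mucosa support and gland cells at 34.0 CPM and the summed markers of meningeal and perivascular fibroblasts at 354 CPM. Values of 10 members and 10 marker sums were tried this way. The gap between the highest or the lowest value and the next was divided by the range (Dixon). Were values normally distributed, which was not tested, chance would put about 1 in 20 groups past the limit at either end. That rate does not apply to Cyp2a5, whose high value in this library was known when the genes were picked. The values come from 1 library and are not independent of each other.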

How the results depend on the processing

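At the high dose 112 genes were called (91 higher, 21 lower), against 291 (201 higher, 90 lower) with DESeq2, 69 with at least 1 CPM required in every library, 4 in a separate fit of each set, and 14 without the library of highest mucosa marker sum in each group, an alternative chosen after seeing the data. With 1 library left out the count was 21 to 138, lowest without the 3rd control of the 2nd set (18 higher, 3 lower), and 80 higher and 58 lower without its 2nd control. At the low dose 0 genes were called with edgeR (228 higher and 201 lower at an unadjusted p under 0.05), 19 with DESeq2, 9 in separate fits, and 0 to 2 with 1 library left out. The responses differed for 1 gene, for 15 with DESeq2, for 2 with no filter, and for 0 to 6 with 1 library left out. The mean response gave 86 calls, 195 with DESeq2, 44 with the 1 CPM filter, and 36 to 93 with 1 library left out. The controls of the sets differed for 3364 genes, and for 1340 to 4073 with 1 library left out.

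Among the members, the count called at the high dose was 1. It was 0 with the 1 CPM filter (which removed Cyp2e1), in separate fits and without the highest mucosa libraries, and 0 to 2 with 1 library left out. Between the controls it was 2, and 1 to 3 with 1 library left out: the call of Cyp1b1 was kept throughout, and that of Tiparp was lost without the 1st, 2nd or 4th control of the 1st set or the 2nd of the 2nd. Replicate numbers did not pair the samples (correlations of same-numbered samples -0.395 to 0.142). With a replicate block 5 genes were called at the high dose, 5 for the mean and 0 for the difference, 0 members were called, and Cyp2a5 at the high dose turned to 0.32.

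Of 338 member values at the doses, 314 kept their sign and side of the threshold and 14 changed sign. In the main fit only Cyp2e1 at the high dose was called. Leaving out a library of the other set also kept the compared libraries as they were. The 314 thus do not measure stability. With 1 library left out, Ahrr at the high dose ran from -0.54 to 0.22, Arnt at the high dose from -0.26 to 0.13 (0.08 without the 3rd high-dose library), Cyp1b1 at the low dose from -0.0986 to 0.0151 (0.0049 and 0.0078 without the 1st or 2nd low-dose library), and Cyp2a5 at the high dose from -0.80 to 2.03 (0.29 without the 1st high-dose library). At the low dose Cyp2a5 ran from -3.85 to 0.80 and Cyp2g1 from -4.07 to 2.16, and between the sets Cyp2a5 from -3.81 to 1.24 and Cyp2g1 from -4.33 to 0.59, all highest without the 1st control of the 1st set. Without the highest mucosa libraries, Ahrr (0.0574), Arnt (0.27) and Cyp2a5 (1.85) turned at the high dose. The causes were not tested. Counts were lowest for Cyp1a1, Cyp1a2 and Ahrr.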
